A study of Mus musculus with 25 samples.

Results

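The loops described here are pairs of 1 kb genome bins whose starts lie 100 kb or more apart on the same chromosome and that were listed in each of 6 H3K27ac HiChIP libraries of mouse CD8+ T cells. They were taken by exact match of both bins across the 6 deposited loop tables, and there were 597 of them among 28033 pairs listed in all 6 tables (2.13%). In HiChIP, DNA fragments that are neighbours in the nucleus are ligated to each other, and an antibody then enriches the ligated fragments that carry a chromatin mark, here the acetylated histone H3 lysine 27 of active promoters and enhancers. The value of a loop is its contact count, the number of read pairs that join its bins in a library.

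The CD8+ T cells came from spleens of C57BL/6J mice and were activated, by IL-2 or by anti-CD3 and anti-CD28 for 2 days per the labels' protocol, and rested 4 hours before treatment. The study asked how H3K27ac-marked contacts of Il2ra, the gene of the high-affinity IL-2 receptor chain, depend on pieces of its super-enhancer. There was 1 library for each of 6 groups: cells of the Intron mutant with IL-2 and its control, cells of the Upstream mutant with IL-2 and its control, and wild-type (WT) cells with IL-2 and their control. Intron and Upstream are the names in the titles for mutants with CRISPR deletions at that super-enhancer. The coordinates of the deletions, whether each line goes back to 1 founder, the IL-2 dose and time of these libraries, and how many animals gave cells to each are not stated by the labels. All 6 groups share the activation step, so the controls, untreated after it, were not naive cells.

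An enhancer acts on a gene by coming close to its promoter in space, and most such contacts span short distances because contact frequency drops steeply with distance. Contacts of more than 100 kb are known in T cells at genes with distant enhancers, and at the T cell receptor loci, where V(D)J recombination brings far segments together. IL-2 acts through its receptor and the transcription factor STAT5, whose textbook targets include the survival gene Bcl2, the kinase gene Pim1 and the feedback inhibitor gene Socs1.

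The promoter-side sequences of the 5 gene-start bins with the most long-range partners are shown because the longest fans of loops start from them. Each is 300 bases of RefSeq sequence (GRCm38.p6, mm10), 250 before and 50 after the gene start, written 5′ to 3′ on the strand of the gene. Capitals mark matches on either strand to 4 motifs: the STAT motif TTCNNNGAA, the AP-1 motif TGANTCA, an NF-kB-like motif and the CTCF core. The motifs do not overlap in these windows. For Rbpj the start used is a listed RefSeq start inside the annotated gene (chr5:53555779-53657445), not the gene's outer 5′ end.
Satb1, chr17:51832598-51832897, minus strand: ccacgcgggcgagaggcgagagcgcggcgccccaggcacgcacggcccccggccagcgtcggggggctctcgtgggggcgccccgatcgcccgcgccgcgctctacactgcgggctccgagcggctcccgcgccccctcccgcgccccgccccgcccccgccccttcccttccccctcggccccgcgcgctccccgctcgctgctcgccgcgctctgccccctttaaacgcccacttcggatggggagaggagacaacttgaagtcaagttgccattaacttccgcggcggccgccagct
Rbpj, chr5:53590096-53590395, plus strand: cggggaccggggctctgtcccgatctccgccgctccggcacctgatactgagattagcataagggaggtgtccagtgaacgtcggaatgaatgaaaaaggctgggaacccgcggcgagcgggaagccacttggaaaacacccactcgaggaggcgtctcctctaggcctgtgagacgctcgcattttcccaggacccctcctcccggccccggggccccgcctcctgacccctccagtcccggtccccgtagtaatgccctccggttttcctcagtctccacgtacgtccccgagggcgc
Irgm1, chr11:48871371-48871670, minus strand: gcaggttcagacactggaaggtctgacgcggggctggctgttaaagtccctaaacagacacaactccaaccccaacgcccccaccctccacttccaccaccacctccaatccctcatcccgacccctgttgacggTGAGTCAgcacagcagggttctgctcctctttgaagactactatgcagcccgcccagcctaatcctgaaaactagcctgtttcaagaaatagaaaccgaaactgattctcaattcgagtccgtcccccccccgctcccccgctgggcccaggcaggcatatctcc
Nabp1, chr1:51478350-51478649, minus strand: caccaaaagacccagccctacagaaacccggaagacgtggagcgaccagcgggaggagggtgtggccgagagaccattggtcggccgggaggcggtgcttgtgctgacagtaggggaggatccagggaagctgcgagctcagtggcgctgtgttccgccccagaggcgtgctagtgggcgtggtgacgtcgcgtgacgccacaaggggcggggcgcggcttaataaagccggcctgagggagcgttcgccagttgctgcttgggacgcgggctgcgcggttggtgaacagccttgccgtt
Tnfaip3, chr10:19015361-19015660, minus strand: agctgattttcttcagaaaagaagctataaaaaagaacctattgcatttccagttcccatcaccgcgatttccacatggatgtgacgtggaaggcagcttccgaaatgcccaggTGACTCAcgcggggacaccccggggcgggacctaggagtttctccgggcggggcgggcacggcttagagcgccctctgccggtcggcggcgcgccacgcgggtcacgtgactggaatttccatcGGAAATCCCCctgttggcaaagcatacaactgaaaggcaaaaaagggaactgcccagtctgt

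The Tnfaip3 window held 1 AP-1 and 1 NF-kB-like match, the Irgm1 window held 1 AP-1 match, and the Satb1, Rbpj and Nabp1 windows held no match to the 4 motifs. The Satb1 window was the richest in G and C of the 5, with 76.7%, and the Tnfaip3 window the lowest, with 56.7%. A RefSeq window was at hand for 17491 of 21883 protein-coding genes, some with several starts, and 147 of its 21262 windows began in an anchor bin of a long-range loop. The STAT motif occurred in 8.16% of those 147 windows and in 7.69% of all windows. The NF-kB-like motif occurred in 6.12% and 4.98%, the AP-1 motif in 5.44% and 6.99%, and the CTCF core in 1.36% and 2.34% of the same sets. In that order, STAT first, the shares of the 147 windows rest on 12, 9, 8 and 2 windows. In the 2931 windows at anchors of all shared pairs the shares were 7.30%, 5.56%, 3.96% and 2.42%. The AP-1 share of the 147 was thus below that of all windows but above that of shared anchors. These matches are letters in a window and were not compared with bound sites.

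The median long-range loop spanned 143 kb, with quartiles of 116 and 215 kb, and the longest spanned 766 kb. The mean contact count over the 6 libraries had a median of 36.5, against 41.5 for the 27436 shared pairs under 100 kb, and ranged between 21.8 and 399. The minimum of 20 contacts in the deposited tables therefore lies close to many of these loops: 137 of 597 averaged under 30 contacts and 117 averaged 50 or more. At the distance limit itself, the 57 loops of 100 to 104 kb had a median of 38.2 contacts and the 93 pairs of 95 to 99 kb just outside it had 39.3. The loops lay on 20 chromosomes, between 626 bins, and fell into 194 loci when loops were joined whose anchors both lay within 10 kb of each other. Of these loci, 108 held 1 loop, while 13 loci of 10 or more loops held 259 loops. Neighbouring loops of a locus share bins and are not independent of each other.

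**Figure D1:**
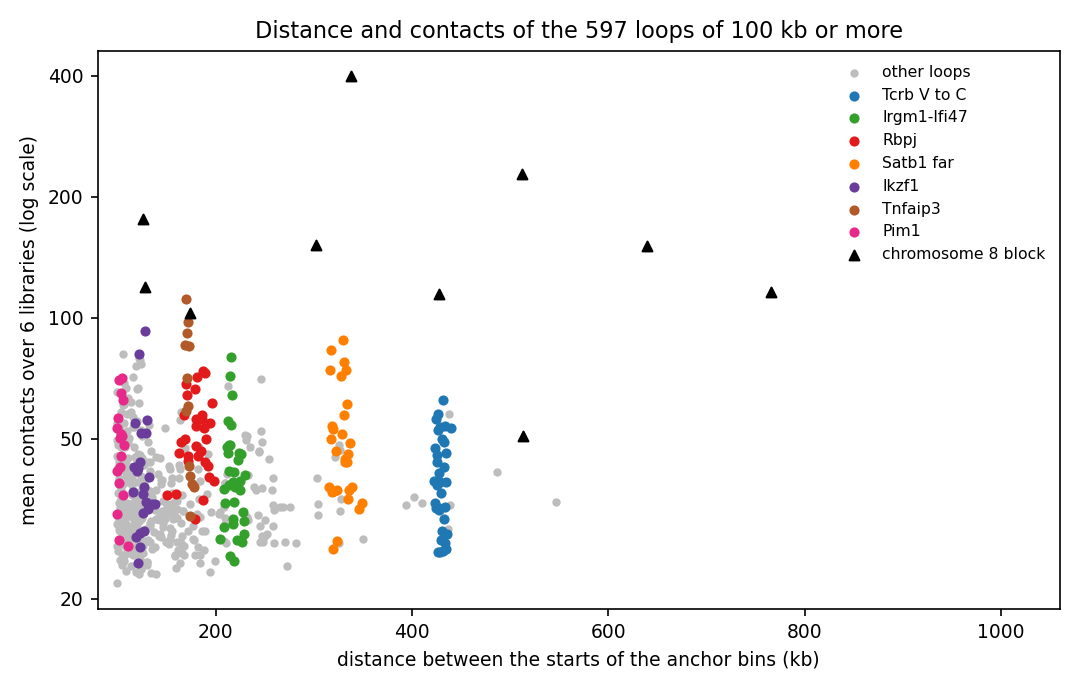
Distance between the starts of the anchor bins (kb) against the mean contact count over 6 libraries (log scale) for each of the 597 loops; colours mark 7 loci and triangles the block on chromosome 8. Most loops lie below 50 contacts, while the triangles, 9 of which are among the 10 highest means, run out to 766 kb.

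Gene starts were more common at the ends of these loops than at the ends of shorter ones. A protein-coding gene start lay in 124 of the 626 anchor bins (19.8%), against 2404 of the 17181 bins that anchor shared pairs under 100 kb. Bins outside genes numbered 276 (44.1%) against 5334, and bins inside a gene body made up 29.1% against 49.8%. A gene start met a bin outside genes in 143 of 597 long-range loops (24.0%), against 9.48% of shorter pairs. Both ends lay in the same gene in 31 loops (5.19%), against 34.3% of shorter pairs. The distance limit itself bears on this contrast, since a gene must reach across the whole loop to hold both ends. It bears in part on the shares of gene bodies and of bins outside genes too. Starts were those listed in the RefSeq windows, so the start of a gene without a window counts here as a gene boundary or body. These shares describe the lists and carry no test, since loops of a locus share bins.

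A few bins collected many partners. The Satb1 start bin, chr17:51832001-51833000, had 28 long-range partners, the Rbpj start bin, chr5:53590001-53591000, had 23, and the Irgm1 start bin, chr11:48871001-48872000, had 21. Nabp1 had 12 partners at its start bin and Tnfaip3 had 11. Of the 626 bins, 394 served 1 loop and 44 served 5 or more.

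Features of the libraries touch every comparison below. The tables listed between 38879 and 94922 pairs and between 1314137 and 3596995 contacts per library, and the Intron control library was the shallowest of the 6. A long-range pair had to reach 20 contacts in that library too: 485 long-range pairs were listed in 5 libraries, and 322 of these were missing from the Intron control library alone. Contacts were scaled for depth where scaled values are given, with factors between 0.772 for the Intron control library and 1.22 for the WT IL-2 library. Bins at 6 of 7 CD8+ T cell markers anchored pairs in all 6 libraries (Cd3d, Cd3e, Cd3g, Cd8a, Cd8b1 and Lck, but not Cd247). The same held for 1 of 7 B cell markers (Cd79a), 3 of 8 myeloid markers (Spi1, Cd68 and Tyrobp), 1 of 5 markers of CD4+ or regulatory T cells (Ikzf2), and none of 6 NK cell and none of 6 erythroid markers. None of these other-cell markers lay at a long-range loop, but none of the 7 CD8+ T cell markers did either. The part of other cells in the results was not tested. In bulk libraries a contact made in fewer cells and a contact made less often per cell cannot be told apart.

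Il2ra itself, the deleted locus, had no long-range loop. Its start anchored 9 listed pairs with 296 contacts in the Intron IL-2 library and 4 pairs with 105 contacts in the Intron control. The Upstream mutant listed 18 pairs with 614 contacts with IL-2 and 15 pairs with 495 contacts in its control, and WT cells listed 39 pairs with 1967 contacts with IL-2 and 32 pairs with 1106 contacts in the control. Both mutants thus listed fewer Il2ra pairs than WT at either treatment, and the longest of all these pairs spanned 63 kb. Chromosome 2 carried 18 long-range loops, none within 5 Mb of Il2ra (chr2:11642792-11693194), and the nearest lay 23.3 Mb away.

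The locus with the most loops lay within the T cell receptor beta locus. It held 35 loops of 423 to 440 kb between the variable segments Trbv12-1 to Trbv13-2 (chr6:41113001-41122000) and the region of the Trbj2 joining segments and the constant gene Trbc2 (chr6:41543001-41556000). These distances are on the reference genome, not on rearranged alleles. Summed and scaled contacts of the 35 loops were 1460 in Intron IL-2 and 1472 in Intron control, 1314 in Upstream IL-2 and 1393 in Upstream control, and 1347 in WT IL-2 and 1464 in WT control. The 6 sums lay close together, and none of the 35 loops passed the test in any comparison. The variable segments are near-copies of each other, so reads may be shared among them.

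Interferon-inducible GTPase genes formed another large group, with 43 loops that had an end at Irgm1, which acts in defence against intracellular microbes. Its loops ran 119 to 230 kb to the related genes Tgtp1, Tgtp2 and Ifi47 or to bins close to Ifi47. The loop with the highest mean, between the Irgm1 start bin and the Ifi47 body (chr11:49087001-49088000), had 108 and 69 contacts in Intron IL-2 and control, 64 and 74 in Upstream, and 77 and 86 in WT. These genes belong to a family of similar sequences, so the split of reads between them is uncertain.

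Satb1, a chromatin organiser of T cells, had 40 loops to regions 203 to 349 kb upstream of its start, where no other protein-coding gene is nearer. They fell into a near group at chr17:52062001-52080000 and a far group at chr17:52148001-52182000, with 1 further loop to chr17:52035001-52036000. The strongest of the far group, from the start bin to chr17:52162001-52163000, had 104 and 65 contacts in Intron IL-2 and control, 78 and 79 in Upstream, and 119 and 83 in WT. The far group of 29 loops summed to 1357 and 1274 scaled contacts in Intron IL-2 and control, 1615 and 1409 in Upstream, and 1590 and 1404 in WT.

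Rbpj, the DNA-binding partner of Notch, had 36 loops of 100 to 235 kb, most of them from its start bin to chr5:53392001-53440000 upstream. That bin holds a RefSeq start inside the annotated gene (chr5:53555779-53657445, plus strand), not the gene's outer 5′ end. The strongest, to chr5:53403001-53404000, had 57 and 44 contacts in Intron IL-2 and control, 88 and 67 in Upstream, and 111 and 75 in WT. Both Intron libraries were the lowest of the 6 here, before scaling.

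Ikzf1, the gene of the lymphoid factor Ikaros, had 24 loops of 116 to 138 kb between its body and chr11:11555001-11571000 upstream. Nabp1, which encodes a single-stranded DNA-binding protein, had 18 loops of 102 to 120 kb. Gimap8, of the lymphocyte GTPase family named GIMAP, had 14 loops within its gene cluster, Lrrc8c, a subunit gene of a volume-regulated anion channel, had 13, and Tmsb4x, the gene of the actin-binding thymosin beta-4, had 13.

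A block at chr8:19784001-20551000 stood apart by its counts. It held 10 loops among 6 bins, of 126 to 766 kb and 29 to 524 contacts, and 9 of the 10 loops with the highest means. The highest, chr8:19784001-19785000 with chr8:20122001-20123000, had 336 and 183 contacts in Intron IL-2 and control, 429 and 455 in Upstream, and 524 and 468 in WT. Only 7 bins of chromosome 8 from 19 to 21 Mb were listed in any library. Whether these bins are near-copies whose reads can be exchanged was not tested, and the counts below are also given without this block.

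Among loops outside the block, the longest joined the Tmsb4x body to a bin 547 kb away, 75.3 kb from Egfl6, with 43 and 29 contacts in Intron IL-2 and control, 29 and 38 in Upstream, and 35 and 35 in WT. A 487 kb loop ran between a bin 0.7 kb from A530032D15Rik and a start of Sp110, a nuclear body protein gene in a cluster of similar genes. That start, in chr1:85598001-85599000, lies inside the annotated Sp110 gene (chr1:85570735-85610850, minus strand), not at its outer 5′ end. Loops of 437 to 439 kb joined the neighbourhood of Babam2 to Fosl2, the gene of an AP-1 subunit. The strongest of these, start to start over 438 kb, had 50 and 40 contacts in Intron IL-2 and control, 74 and 47 in Upstream, and 76 and 58 in WT. Scaled for depth, the IL-2 library was the higher in Upstream and WT cells, while Intron cells had 45.8 with IL-2 against 51.8 in the control, and the loop did not pass the test for IL-2.

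In 31 loops both bins held a gene start listed in the RefSeq windows. The strongest joined Gimap8 to Gimap3 over 123 kb with a mean of 78.7 contacts, Irgm1 to Tgtp1 over 121 kb with 67.0, and Babam2 to Fosl2 with 57.5. Other pairs of starts were Oxsm with the topoisomerase gene Top2b (mean 43.5), Cnn2 with the kinase gene Stk11 (43.0), Ubtf with Grn (40.3), the apoptosis gene Bax with Bcat2 (36.0), and Smndc1 with the cohesin gene Smc3 (30.7). Ccnd3, a cyclin D gene, met the start bin of Bysl and Med20 (32.8), and Nsmce1 met Il21r, the IL-21 receptor gene (27.7).

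**Figure D2:**
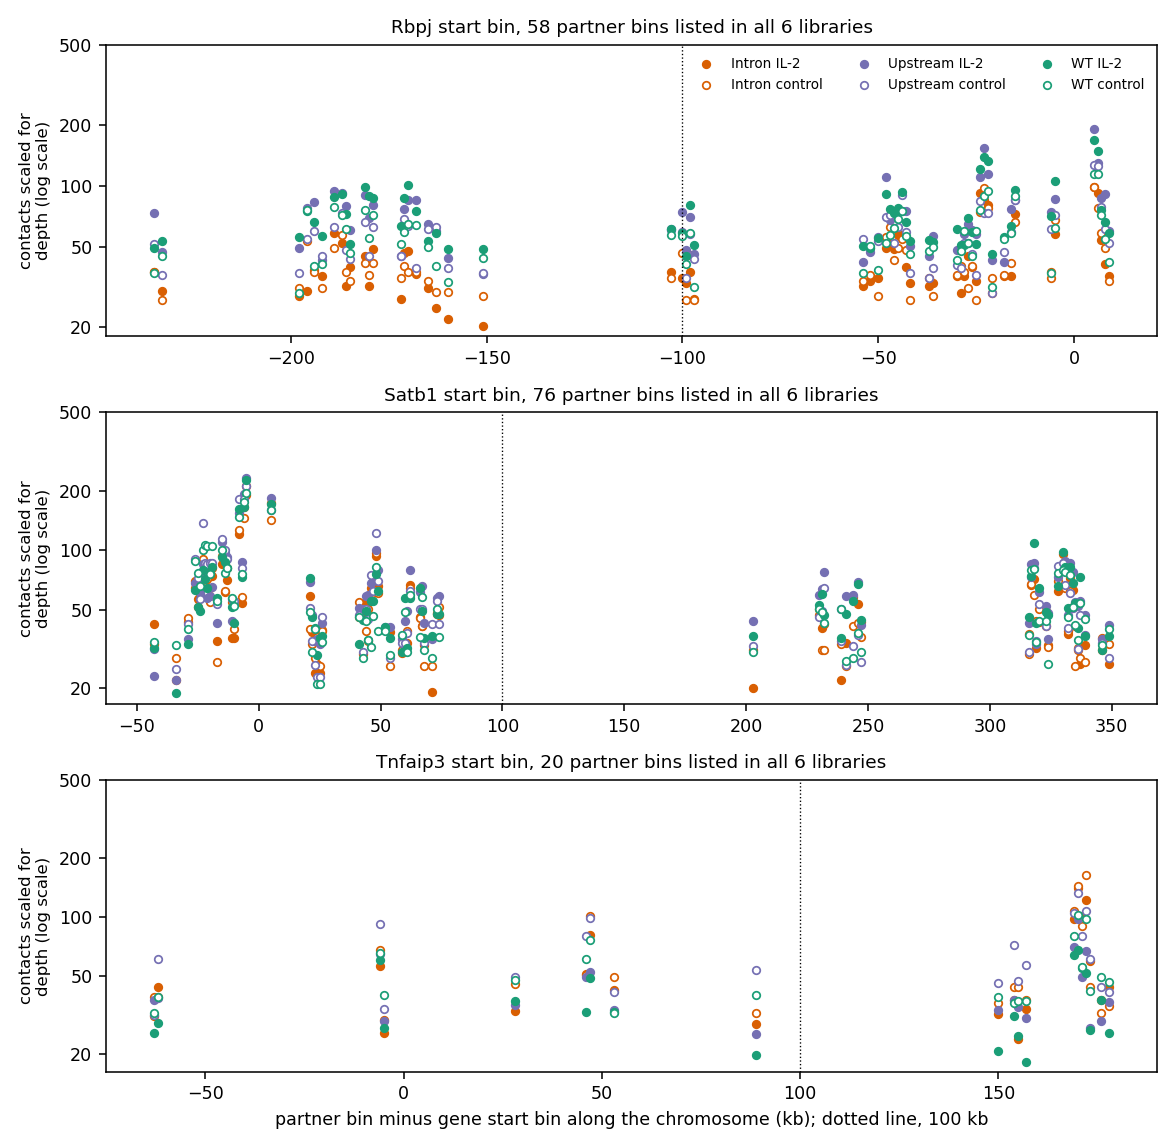
Contacts scaled for depth (log scale) between the Rbpj, Satb1 and Tnfaip3 start bins and every partner bin listed in all 6 libraries, by signed distance along the chromosome (kb); filled points are IL-2 libraries, open points controls, and the dotted line marks 100 kb. At Rbpj the Intron points lie lowest over most of the distant partners, and at Tnfaip3 both Intron points lie highest at 170 to 172 kb.

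With IL-2, long-range loops at Pim1, Bcl2 and Socs1 gained contacts, and loops at Tnfaip3 lost contacts. The comparison was fitted over all 28033 shared pairs with genotype as a further term, by edgeR's quasi-likelihood test with Benjamini-Hochberg adjustment, which gives every adjusted p of a loop or bin below. With 1 library per genotype and treatment, the spread is how far changes differ between genotypes or treatments, and the fit shared it over all pairs (infinite prior degrees of freedom), so a p-value does not rest on that loop's own spread. No source says which libraries came from separate animals. At an adjusted p under 0.05, 32 of 597 long-range loops were called, 26 higher and 6 lower (5.36%), where 3.30% of all shared pairs were called, 2.56% higher and 0.731% lower. Of the 32, 27 moved the same way in each genotype, and they lay in 9 loci. The median log2 change over the 597 loops was 0.03, and 0.00 over the pairs under 100 kb.

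Pim1, a kinase gene of growth and survival, gave the largest rise. The loop between chr17:29396001-29397000, 16.5 kb from Fgd2, and chr17:29500001-29501000, 3.9 kb past the end of Pim1, had 81, 90 and 111 contacts in the IL-2 libraries of Intron, Upstream and WT cells, against 31, 36 and 42 in their controls. Every IL-2 library lay above every control, but the loop was picked for its rise, and how many loops were so separated was not counted. The change was 1.13 ± 0.17 on the log2 scale (SE, adjusted p = 1.12e-07), a 2.18-fold rise. Of the 21 loops at Pim1, 8 rose and none fell, and all 21 had a positive log2 change with a median of 0.43. The locus of 18 loops summed to 757, 1195 and 1107 scaled contacts with IL-2 in Intron, Upstream and WT cells, against 708, 683 and 701 in controls.

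Bcl2, which blocks apoptosis, had 15 long-range loops, 8 of which rose with IL-2 and none fell, with a median log2 change of 0.65. The loops that rose spanned at most 113 kb, between bins close to the gene's start and bins far inside the gene. The loop between chr1:106609001-106610000 and chr1:106713001-106714000 had 59, 49 and 55 contacts with IL-2 in Intron, Upstream and WT cells, against 23, 24 and 21 in controls (1.99-fold, SE of the log2 change 0.21, adjusted p = 0.000494). The groups did not overlap, but the loop was among those picked for a large rise, and how many loops were so separated was not counted. A neighbouring loop from chr1:106602001-106603000 had 89, 97 and 76 contacts with IL-2 against 37, 38 and 41 in controls (log2 change 0.92, adjusted p = 3.18e-05).

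Socs1, whose product inhibits the JAK kinases, had 6 loops, of which 3 rose. The loop between the body of Clec16a (chr16:10639001-10640000) and the end of Socs1 (chr16:10783001-10784000) had 42, 55 and 66 contacts with IL-2 in Intron, Upstream and WT cells, against 28, 21 and 20 in controls. Scaled for depth, the Intron libraries were nearly level at 38.5 and 36.3, while those of Upstream cells had 57.6 with IL-2 and 22.9 in the control. The log2 change was 0.99 ± 0.21 (SE, adjusted p = 0.000571).

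The start of Satb1 contacted chr17:52073001-52074000 with 37, 56 and 58 contacts with IL-2 in Intron, Upstream and WT cells, against 20, 24 and 29 in controls (log2 change 0.82 ± 0.21 SE, adjusted p = 0.00729). Of the 40 Satb1 loops 3 rose with IL-2 and none fell. At Rbpj 4 of 36 loops rose, among them the loop between chr5:53411001-53412000 and chr5:53591001-53592000 with 42, 68 and 79 contacts with IL-2 against 20, 33 and 46 in controls (log2 change 0.71, adjusted p = 0.0145).

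Tnfaip3, which encodes the NF-kB inhibitor A20, held 4 of the 6 loops that fell with IL-2. Its start, in chr10:19015001-19016000, contacted chr10:19187001-19188000 with 133, 64 and 63 contacts with IL-2 in Intron, Upstream and WT cells, against 127, 98 and 102 in controls. Scaled, the IL-2 library was the lower of each pair, with 122 against 165 in Intron, 67.0 against 107 in Upstream and 51.8 against 97.2 in WT cells, although the Intron IL-2 library lay above the controls of the other genotypes. The log2 change was -0.64 ± 0.14 (SE, adjusted p = 0.000740), and all 20 Tnfaip3 loops had a negative IL-2 change, with a median of -0.44. The other 2 falls were a loop between 1 boundary of the histone demethylase gene Kdm3b and the body of the translation release factor gene Etf1 (log2 change -0.73, adjusted p = 0.0365) and a Tmsb4x loop (-0.72, adjusted p = 0.0186). The Kdm3b loop had 29, 21 and 21 contacts with IL-2 in Intron, Upstream and WT cells, against 34, 36 and 28 in controls. These counts lie close to the listing minimum of 20, and the call was lost whichever library was left out.

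The strength of these calls was uneven. The Pim1 loop was the 1 of the 32 that stayed called when any single library was left out. Without the WT control, the WT IL-2 library or the Upstream control 2 loops were called, without the Upstream IL-2 library 3, and without the Intron IL-2 or the Intron control library 44 and 45.

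**Figure D3:**
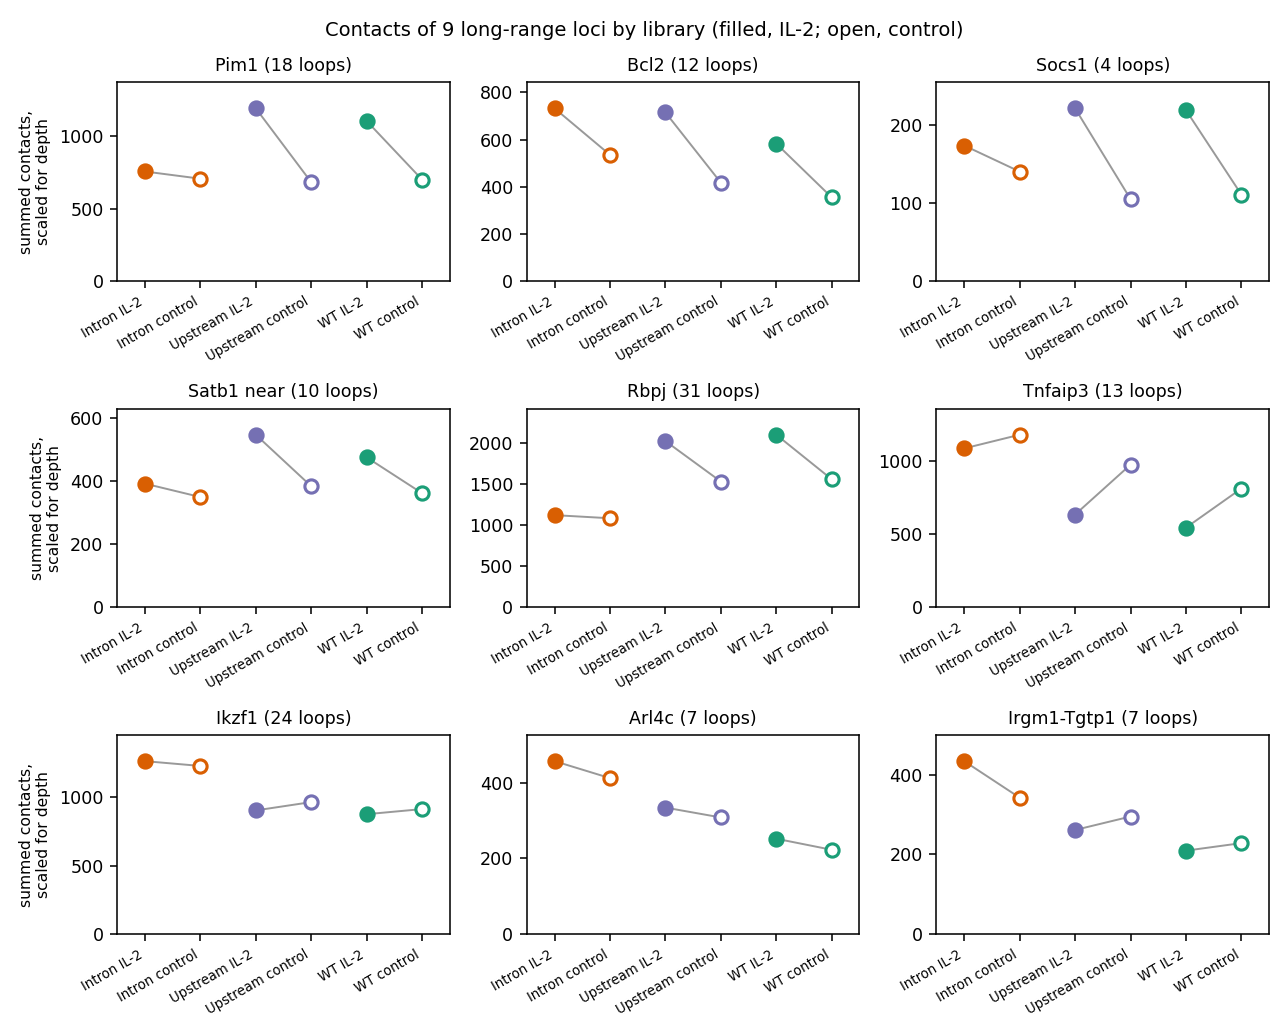
Summed contacts of 9 loci, scaled for depth, in each of the 6 libraries; filled points are IL-2, open points controls, and lines join the libraries of a genotype. The IL-2 point is above its control at Pim1, Bcl2, Socs1, near Satb1 and Rbpj in each genotype, with the smallest step in Intron cells at each of these loci. No locus-level test was made.

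The IL-2 change was next set side by side by genotype. At several of these loci the Intron libraries differed little between IL-2 and control. Median log2 changes of the Pim1 loops were 0.02 in Intron, 0.77 in Upstream and 0.65 in WT cells, and those of the Rbpj loops were 0.02, 0.42 and 0.36 in the same genotypes. Tnfaip3 loops had medians of -0.15 in Intron, -0.59 in Upstream and -0.59 in WT cells. Bcl2 loops had 0.42, 0.89 and 0.59, and Socs1 loops 0.16, 0.88 and 0.72. The Pim1 locus summed to 757 scaled contacts with IL-2 against 708 in control in Intron cells, but to 1107 against 701 in WT cells.

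The test of this difference called no long-range loop. An interaction of treatment with 1 genotype, run for each genotype, called none of the 597 loops for Intron, Upstream or WT cells, where 0.0357%, 0.00% and 0.00% of all shared pairs were called. At an unadjusted p under 0.05 there were 39 loops for Intron, 22 for Upstream and 12 for WT cells, and DESeq2 called none for any genotype. The lowest adjusted p for the Intron response was 0.235 among Pim1 loops, 0.175 among Tnfaip3 loops, 0.456 among Rbpj loops and 0.552 among Bcl2 loops. These fits leave 1 residual degree of freedom.

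In the Intron mutant, long-range loops at Rbpj had fewer contacts than in WT, and loops at Tnfaip3, Arl4c, Ikzf1, Myc and Irgm1 had more. Of the 597 loops 98 were called (16.4%), 64 higher and 34 lower, where 11.3% of all shared pairs were called, 6.27% higher and 5.03% lower. Of these 98, 97 moved the same way with IL-2 and in control, and they lay in 39 loci. The median log2 difference was 0.12 over the 597 loops and -0.01 over shorter pairs. It was 0.18 among the 137 loops averaging under 30 contacts, 0.11 among those of 30 to under 50, and -0.05 among the 117 of 50 or more. In these tiers 6 loops were higher and 0 lower, 39 and 12, and 19 and 22. The shares called were 4.38%, 14.9% and 35.0%, against 3.78%, 9.62% and 16.7% of shorter pairs. Every loop had to reach 20 contacts in the shallow Intron control library too, which leaves out weak loops that were low there. How far this shaped the excess of higher loops was not tested. Scaled over the long-range pairs alone, which moved the median of all shared pairs to -0.14, 42 loops were higher and 54 lower.

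Rbpj carried 21 of the 34 lower loops. All 36 of its loops had a negative difference, with a median log2 of -0.74, but with anchor coverage as an offset 14 of the 21 turned positive. The loop between chr5:53410001-53411000 and the Rbpj start bin had 35 contacts with IL-2 and 28 in control in Intron cells and 66 and 41 in Upstream cells, against 108 and 58 in WT cells. Scaled for depth, the Intron libraries had 32.1 and 36.3, below all others, against 88.8 and 55.3 in WT. The difference was -1.12 ± 0.23 on the log2 scale (SE, adjusted p = 5.68e-05). The locus of 31 loops summed to 1121 and 1083 scaled contacts with IL-2 and in control in Intron cells and 2023 and 1530 in Upstream cells, against 2100 and 1558 in WT cells.

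The largest fall lay between Itpr1, the gene of a calcium release channel, and Bhlhe40, a transcription factor gene of activated T cells. The loop between chr6:108552001-108553000, 0.9 kb from Itpr1, and chr6:108659001-108660000, 0.6 kb from Bhlhe40, had 20 contacts with IL-2 and 22 in control in Intron cells and 77 and 49 in Upstream cells, against 65 and 61 in WT cells. Both Intron libraries lay below the other 4 and close to the listing minimum of 20. The log2 difference was -1.30 ± 0.26 (SE, adjusted p = 6.72e-05), and it was the 1 of 6 Bhlhe40 loops that was lower.

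At Satb1 2 of 40 loops were lower. The loop between its start and chr17:52169001-52170000 had 29 and 22 contacts with IL-2 and in control in Intron cells and 53 and 43 in Upstream cells, against 89 and 57 in WT cells (log2 difference -1.24 ± 0.25 SE, adjusted p = 4.15e-05). Pim1 had 2 lower loops of 21, with log2 differences of -0.74 and -0.70. The chromosome 8 block had 6 lower loops of 10, and its strongest loop had a log2 difference of -0.67 (adjusted p = 1.97e-06), which was 0.03 with the coverage offset. Leaving out that block, 92 loops were called, and 31 for IL-2.

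Among the rises, Tnfaip3 had 12 of 20 loops called higher and none lower, with a median log2 difference of 0.73. Its loop between chr10:19014001-19015000 and chr10:19188001-19189000 had 69 and 46 contacts with IL-2 and in control in Intron cells and 26 and 40 in Upstream cells, against 30 and 32 in WT cells (log2 difference 1.18, adjusted p = 6.99e-05). The loop from the start bin to chr10:19187001-19188000, which fell with IL-2, was 0.98 ± 0.17 higher (log2, SE, adjusted p = 8.09e-07).

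Arl4c, which encodes a small GTPase of the ARF-like family, had 8 of 9 loops higher, with a median of 0.97. The loop between chr1:88563001-88564000 and chr1:88701001-88702000 had 50 and 32 contacts with IL-2 and in control in Intron cells and 36 and 37 in Upstream cells, against 24 and 20 in WT cells (log2 difference 1.17, adjusted p = 0.000350). After scaling, the Intron libraries had 45.8 and 41.5 and the Upstream libraries 37.7 and 40.4, against 19.7 and 19.1 in WT. The Upstream libraries also lay above WT, and the same loop did not pass the test for Upstream.

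Irgm1 had 11 of 43 loops higher and none lower. Its start-to-start loop with Tgtp1 had 108 and 66 contacts with IL-2 and in control in Intron cells and 62 and 52 in Upstream cells, against 60 and 54 in WT cells (log2 difference 0.88, adjusted p = 0.000250). Ikzf1 had 5 of 24 loops higher, and all 24 had a positive difference, with a median of 0.50. A loop between chr11:11558001-11559000 and chr11:11688001-11689000, had 74 and 64 contacts with IL-2 and in control in Intron cells and 50 and 48 in Upstream cells, against 53 and 45 in WT cells (log2 difference 0.78, adjusted p = 0.00445).

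Myc, the growth-promoting transcription factor gene, had 3 of 5 loops higher. The loop between a bin at 1 boundary of the gene (chr15:61985001-61986000) and chr15:62168001-62169000 had 60 and 29 contacts with IL-2 and in control in Intron cells and 34 and 29 in Upstream cells, against 37 and 23 in WT cells (log2 difference 0.83, adjusted p = 0.0107). Ets1, a T cell transcription factor gene, had 2 of 3 loops higher, the stronger with a log2 difference of 1.14 (adjusted p = 0.000150). S1pr1, the receptor gene that guides exit from lymph nodes, had 2 of 3 higher.

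The largest single rise was the 487 kb loop between A530032D15Rik and the Sp110 start, with 80 and 41 contacts with IL-2 and in control in Intron cells and 34 and 34 in Upstream cells, against 31 and 28 in WT cells (log2 difference 1.30 ± 0.24 SE, adjusted p = 9.51e-06). Its bins lie in a cluster of similar genes, so read placement is uncertain. Loops at Pmepa1, whose product dampens TGF-beta signalling (log2 difference 1.06, adjusted p = 0.000658), and at Letm2 (1.06, adjusted p = 0.000535) were also higher. Among loops chosen after their values were seen, a 410 kb loop joined the upstream boundary of Klf7 to the start of Creb1 with 62 and 33 contacts with IL-2 and in control in Intron cells and 24 and 30 in Upstream cells, against 30 and 29 in WT cells (0.96, adjusted p = 0.00144). A loop at 1 boundary of the kinase gene Sik1, chosen the same way, was lower by a log2 difference of -0.88 (adjusted p = 0.00294).

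Here too the calls leaned on single libraries. Leaving out the WT IL-2 library left 9 of the 597 loops called, leaving out the Intron IL-2 library left 19, leaving out the WT control left 36, and leaving out the Intron control left 95. Of the 98 calls, 3 held in every such fit: the chromosome 8 loop named above, the Tnfaip3 start loop to chr10:19187001-19188000, and the Tnfaip3 loop between chr10:19014001-19015000 and chr10:19184001-19185000.

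**Figure D4:**
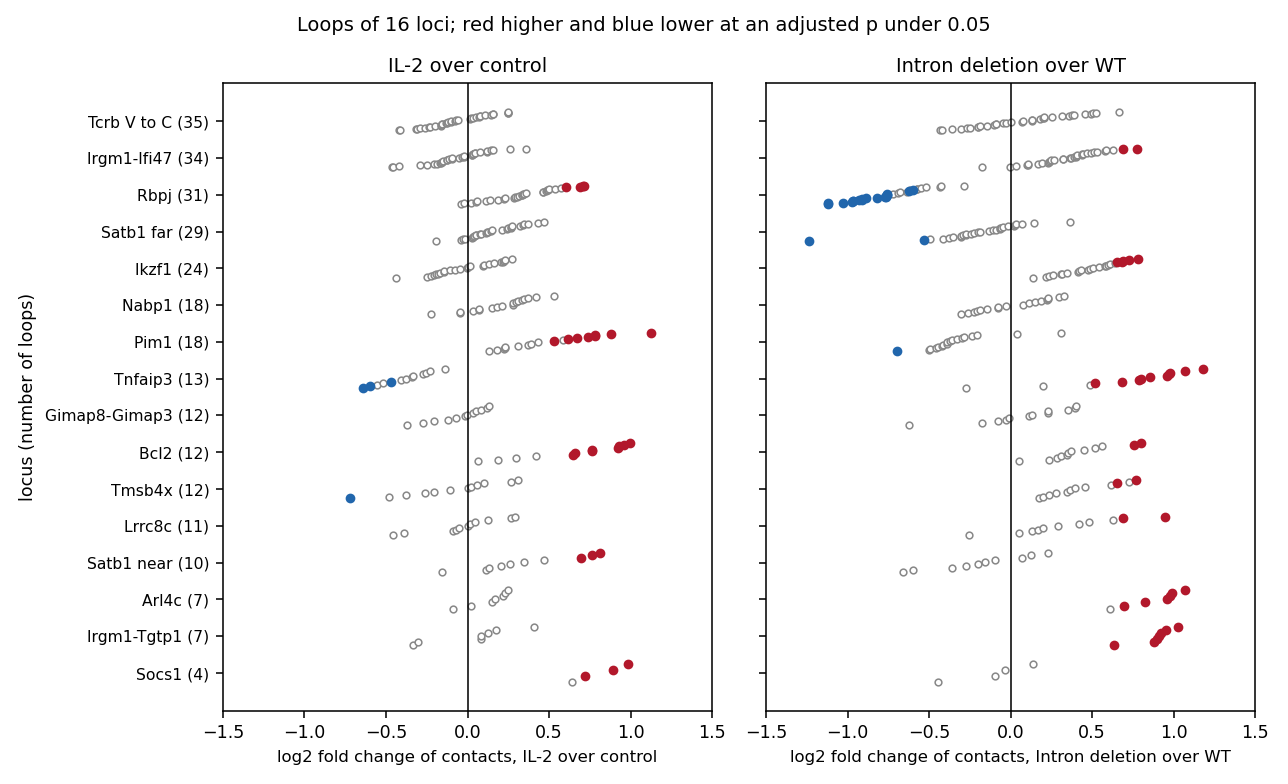
Log2 contact change of each loop at 16 loci for IL-2 over control (left) and the Intron deletion over WT (right); filled points passed the test at an adjusted p under 0.05, red higher and blue lower. All Pim1 and Bcl2 loops lie right of 0 for IL-2, and in the Intron comparison all Arl4c loops lie right of 0 and all Rbpj loops left of it.

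In the Upstream mutant 1 of the 597 loops differed from WT, upwards, where 0.0785% of all shared pairs were called, 0.0464% higher and 0.0321% lower, and 52 loops had an unadjusted p under 0.05. This comparison shares its WT libraries with the Intron comparison. The called loop joined chrX:167101001-167102000 to chrX:167205001-167206000, 1.1 kb from Tmsb4x, with 53 and 36 contacts with IL-2 and in control in Upstream cells, against 28 and 22 in WT cells. In Intron cells it had 44 and 27, and it was also called higher in the Intron comparison. Both Upstream libraries lay above both WT libraries, also after scaling (log2 difference 1.11 ± 0.25 SE, adjusted p = 0.0218). The call was lost without any WT or Upstream library, and DESeq2 called none.

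The 36 Rbpj loops had a median log2 difference of -0.02 in the Upstream comparison and -0.74 in the Intron comparison, the 20 Tnfaip3 loops 0.36 and 0.73, and the 9 Arl4c loops 0.57 and 0.97. The difference between the mutants was not tested.

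The tables also give the coverage of each bin, the number of reads that fall in it. The distance rule did not use it, but both bins of every listed pair carried a peak flag. A loop's own reads also fall in its bins, so its contacts and its anchor coverage are not independent. Between Intron and WT cells 335 of the 626 anchor bins differed in coverage, 166 higher and 169 lower (edgeR), where 46.2% of all bins were called. Of the 98 loops called in that comparison, 94 had an anchor whose coverage was called in the same direction, and 63 had both. Of the 499 loops not called, 317 had such an anchor in the direction of their own difference (63.5%) and 99 had both (19.8%). The Rbpj start bin had a log2 coverage difference of -0.49 (adjusted p = 0.00339) and its partner chr5:53410001-53411000 one of -1.07. At Tnfaip3 the partner bin chr10:19187001-19188000 was higher by 1.25 (adjusted p = 0.00175), while the start bin had 0.20 (adjusted p = 0.0983).

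The Sp110 loop went another way: its count was higher in Intron cells, but the Sp110 start bin had a log2 coverage difference of -0.56 and the other bin 0.31. With the coverage of both bins entered as an offset, 6 loops were called for Intron, all higher, and 5 of these were among the 98. Those 5 lay at Sp110, where the difference was largest, at Tnfaip3 (log2 differences 0.56 and 0.53) and at Myc (1.01 and 0.91). The 1 not among the 98 lay between Itpr1 and Bhlhe40 (1.01). It was not the Itpr1 to Bhlhe40 loop with the largest fall, which stayed negative with the offset (-0.39, edgeR adjusted p = 0.623). Of the 98 loops, 19 changed the sign of their difference with this offset, 14 of them among the 21 called at Rbpj, and the Arl4c differences lay between 0.04 and 0.43.

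For IL-2, coverage was called at none of the 626 anchors and at 0.00% of all bins, with 282 anchors at an unadjusted p under 0.05. All 32 loops called for IL-2 had a mean anchor change of the same sign as the contacts. The matching share of the 565 loops not called was not taken, and a loop's own reads enter that coverage. The 32 can therefore not be set against a background. The Pim1 bin chr17:29500001-29501000 had a log2 coverage change of 0.76 (adjusted p = 0.0616), its partner 0.44, the Bcl2 bin chr1:106713001-106714000 one of 0.56 and the Clec16a bin 0.80. With coverage as an offset no loop was called for IL-2. In Upstream cells 32 anchors differed from WT (28 higher, 4 lower), where 1.69% of all bins were called, among them the Tmsb4x partner chrX:167101001-167102000 (0.61, adjusted p = 0.0211).

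Of 25 IL-2 and STAT5 target genes 9 had a long-range loop at or within 10 kb of the gene: Bcl2, Bcl2l1, Ccnd2, Ccnd3, Lta, Ltb, Myc, Pim1 and Socs1. Of their 53 loops 18 rose with IL-2, where 2.56% of all shared pairs were higher, and none fell, with a median log2 change of 0.39 where that of all 597 loops was 0.03. Pim1, Bcl2 and Socs1 supplied these rises, and the list was drawn up with earlier results of these data known. In Intron against WT 5 of the 53 were higher and 2 lower, where 6.27% and 5.03% of all shared pairs were, with a median of 0.02 where that of all 597 loops was 0.12.

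T cell transcription factor genes had loops at 5 of 28 genes, Bach2, Ets1, Ikzf1, Satb1 and Zeb2. Of their 71 loops 3 rose with IL-2, all at Satb1, and in the Intron comparison 7 were higher, at Ikzf1 and Ets1, and 2 lower, at Satb1. The shares called over all shared pairs were 2.56% higher with IL-2, and 6.27% higher and 5.03% lower in Intron cells, so these counts lie near the background. Cytokine and chemokine receptor genes had loops at 4 of 25 genes, Cxcr6, Il21r, S1pr1 and Tgfbr2, and of 17 loops none was called for IL-2 and 2 were higher in Intron cells. T cell receptor signalling genes had loops at Lcp2 and Ptprc of 18 genes, checkpoint and activation genes at Dusp5 and Dusp6 of 19, cytotoxic genes at Tnf of 12, and architectural protein genes at Smc3 and Yy1 of 11. None of the loops of these 4 groups was called in any comparison. None of 10 housekeeping genes had a long-range loop.

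Long-range loops took 1.87%, 1.89% and 1.77% of the contacts of all shared pairs with IL-2 in Intron, Upstream and WT cells, against 1.84%, 1.82% and 1.73% in controls. The means were 1.84% ± 0.0635 with IL-2 and 1.80% ± 0.0545 in controls (SD, n = 3 each), a difference of 0.0471 percentage points (exact permutation test, two-sided, p = 0.4, smallest possible 0.1). The groups overlapped, but the IL-2 library had the higher share in 3 of 3 genotypes. Paired by genotype, an alternative chosen after seeing the data, the exact two-sided p was 0.25, the smallest that 3 pairs allow.

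Outside the 597, many long-range pairs were listed in some libraries alone. Of 6691 long-range pairs listed in any library, 8.92% were listed in all 6, against 23.9% of the 114880 shorter pairs, and 2965 were listed in 1 library. In all 3 IL-2 libraries and no control there were 148, against 3 in all 3 controls and no IL-2 library. Each IL-2 library also listed more pairs of any distance than its control: 72743 against 38879 in Intron, 61168 against 56113 in Upstream and 94922 against 72698 in WT cells. The matching counts of shorter pairs were not taken, so 148 against 3 cannot be read as particular to long-range pairs or as an effect of IL-2. Of 2082 long-range pairs listed in both WT libraries, 748 were listed in both Intron and 1072 in both Upstream libraries.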

How the data were processed

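H3K27ac HiChIP was measured in 6 libraries, and the 19 ChIP-seq samples of the series were not used here. Per the submitters' processing notes, the reads went through CASAVA, Bowtie2 (version 2.2.6) and HiC-Pro on mm10; the deposited tables have the layout of FitHiChIP. The deposited tables list pairs of 1 kb bins with a contact count of at least 20, at least 5 kb apart, with the coverage count of each bin as the authors made it and with empty p columns. The table names carry the replicate number 2, which the labels do not explain.

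Contact counts of the 28033 pairs listed in all 6 tables were tested with edgeR 4.0.16 (R 4.3.3; quasi-likelihood, TMM, additive genotype and treatment, 2 residual and infinite prior degrees of freedom, Benjamini-Hochberg over all pairs), coverage counts likewise, with DESeq2 1.42.0 as an alternative. The script was tested on simulated data. SE is the log2 change divided by the root of F. Scaled contacts are counts divided by depth factors. All 597 loops entered the test, with no filter added. Counts cover counting error only, and ligation reads without molecular identifiers are not independent molecules.

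Loops were named by the protein-coding genes at their anchors. Named were the 10 with the highest means and the 10 longest, up to 10 rises and falls per comparison, loops at listed genes and the 5 largest loci; others are marked. The members and gene lists were chosen with earlier results of these data known. Loops named for large rises or falls were picked by their values, so separation of their counts by group follows in part from that choice. Promoter sequences and gene positions are from RefSeq GRCm38.p6.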

Additional observations from a re-analysis of the deposited data

How the results depend on the processing

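The numbers of loops called, 32 for IL-2, 98 for Intron and 1 for Upstream, were close to these under other size factors, library totals, a mean of 30 contacts or without the chromosome 8 block, the last chosen after seeing the data (31, 92 and 1). With DESeq2 they were 0, 0 and 0, with 23 of the 32 and 52 of the 98 at an unadjusted p under 0.05 and lowest adjusted p-values of 0.0951 and 0.0618 among them. With anchor coverage as an offset they were 0, 6 and 1, the last a chromosome 8 loop, and in 5 kb bins 21, 71 and 2 of 321. Over pairs of 50 kb or more 77, 223 and 3 of 2345 were called (3.28%, 9.51% and 0.128%). Over pairs of 200 kb or more 3, 20 and 0 of 171 were called (1.75%, 11.7% and 0%). The shares over all shared pairs were 3.30%, 11.3% and 0.0785%. The higher shares of the 597 loops for IL-2 and Intron, 5.36% and 16.4%, were thus particular to the limit of 100 kb. At the other limits the IL-2 and Intron shares lay near or below those of all shared pairs. Leaving out 1 library gave 2 to 45, 9 to 95 and 0 to 1 loops. Anchor bins called for coverage numbered 0, 335 and 32, and 0 to 393, 154 to 461 and 0 to 334 when 1 library was left out, with 393 for IL-2 and 334 for Upstream without either Intron library. For the losses under DESeq2, the offset and the left-out libraries the cause was not tested. The log2 difference between Intron and WT of the Rbpj loop from chr5:53422001-53423000 turned from -0.93 to 0.0085 with the offset, 1 of 19 among the 98 that changed sign, 14 of them at Rbpj. The long-range share difference was 0.836 percentage points over every listed pair and between 0.0162 and 0.0836 when 1 library was left out. The IL-2 comparison is paired by genotype through the genotype term of the fit, and no replicate block was fitted because the labels give no replicate numbers. Depth limits the loops near 20 contacts, and a pair under 20 in any library is absent here.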
